A study of Saccharomyces cerevisiae with 3 samples.

Results

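Hsp90 is an ATP-driven molecular chaperone that folds and activates kinases, transcription factors and other client proteins late in their maturation. In budding yeast it is made from a pair of nearly identical genes, HSC82, which is transcribed in unstressed cells, and HSP82, which is strongly heat inducible. Cochaperones bind it at different steps of the ATPase cycle: STI1 and CDC37 load clients, AHA1 and HCH1 stimulate ATP hydrolysis, SBA1 holds the closed form, and the cyclophilins CPR6 and CPR7 bind its carboxyl-terminal tail. Heat shock factor Hsf1 drives transcription of HSC82, HSP82 and many cochaperone genes. The 9 genes described here, HSP82, HSC82, STI1, AHA1, HCH1, SBA1, CPR6, CPR7 and CDC37, were selected by gene name in the annotation of the array. Each had 1 row on the array, and they are 9 of 6270 genes. The row annotation places them on 8 chromosomes, with AHA1 and CDC37 both on chromosome IV.

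Messenger RNA was measured in Saccharomyces cerevisiae strain BY4742 on 3 oligonucleotide arrays. BY4742 is a haploid alpha-mating-type laboratory strain without functional HIS3, LEU2, LYS2 and URA3. Control cells were in growth at 24 °C and atmospheric pressure (0.1 MPa). The high-pressure group had spent 5 h at 25 MPa and 24 °C. The low-temperature group had spent 5 h at 15 °C and 0.1 MPa. No such incubation is stated for the control. RNA of 3 cultures was pooled for each condition, so each condition has 1 array, no difference between conditions could be tested, and precision is limited by the number of arrays. The series asked how cell wall mannoprotein genes respond to pressure and cold, and Hsp90 was not its subject.

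Levels are log2 values that the authors made by robust multiarray average (RMA), and each log2 ratio is the difference of a gene's levels on 2 arrays. A gene was counted as higher or lower past 1.5-fold, a log2 ratio of 0.58, the size named in the design text. The higher of its 2 levels also had to reach the 25th percentile of that array. Each gene is read by 15 perfect-match probes, each paired with a mismatch probe altered in sequence to read unspecific signal. A gene is called above mismatch on an array where its mean pair difference lay above 0 (one-sided limit, 5%). A fold is preceded by "at least" if the dimmer of its levels failed this limit, and other scalings can still give a smaller one. Values of different genes come from different probes, so levels are compared within a gene only.

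The median gene level differed between arrays, at 6.43 for the control, 6.76 for high pressure and 6.97 for low temperature. The median log2 ratio over all genes was 0.13 under pressure and 0.26 in the cold. Centring each array on its median moved that ratio to -0.21 and -0.29, so centred ratios are to be read beside these values. The 4 alpha-specific mating genes read as a check of the strain were above mismatch on all 3 arrays, as were STE2 of the 5 a-specific genes and HIS3 of the 4 deleted markers. AGA2, another a-specific gene, passed that limit on the control array and under pressure. The sample descriptions name another strain and growth temperature than the titles do, and the titles were followed.

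Under high pressure 8 of the 9 genes were higher than in the control past 1.5-fold and 0 were lower. Over the 4902 genes that passed the level limit, 28.1% were higher and 12.2% lower. All 9 passed that limit, and their median log2 ratio was 1.19 against 0.13 for all genes. The exception was CPR7. In RNA of whole cultures, more of a transcript per cell and more cells that hold it cannot be told apart. In the cold, 5 of the 9 were higher and 0 lower, with 34.8% of 4877 genes higher and 9.6% lower and 8 of the 9 past the level limit. Their median log2 ratio was 0.72 against 0.26 for all genes. Both comparisons use the same control array. Its image name carries a tag that the other arrays lack and that no label explains, and whether it marks another scan setting was not tested. For each of the 9 genes the RMA level was lowest on the control array and highest on the high-pressure array. For several genes adjacent levels in that order lay close together. The median gene level was also lowest on the control array. With the arrays centred, 8 of the 9 lay above the control under pressure and 7 in the cold, where the median ratio of all genes was -0.21 and -0.29. With perfect-match intensities 5 of the 9 were higher under pressure than in the cold, where that median was -0.23. How many of all genes share the order of the RMA levels, or have ratios above 0, was not counted.

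**Figure D1:**
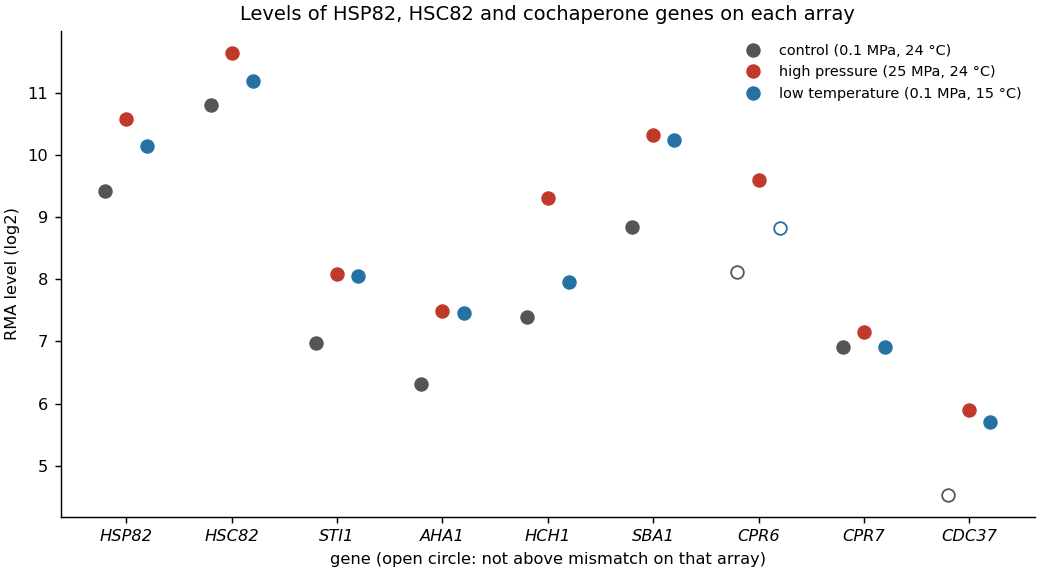
RMA level on the log2 scale of each of the 9 genes in the control, under high pressure and at low temperature, 1 array each, with open circles where a gene was not above mismatch. The control level is lowest in each gene, and the separation is smallest for CPR7.

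HSP82 (YPL240C, chromosome XVI), the heat-inducible Hsp90 gene, had a level of 9.42 in the control, 10.59 under pressure and 10.15 in the cold. The log2 ratio against the control was 1.17 under pressure, 2.24-fold, and 0.72 in the cold, 1.65-fold. Of all genes, 90.9% had a lower ratio under pressure and 76.0% had one in the cold. With the arrays centred on their medians the cold ratio of HSP82 was 0.18, and with perfect-match intensities it was 1.35. The median over all genes was -0.29 and 0.41 in these settings.

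HSC82 (YMR186W, chromosome XIII), the Hsp90 gene of unstressed cells, had a level of 10.80 in the control, 11.64 under pressure and 11.19 in the cold. Under pressure its log2 ratio was 0.84, 1.79-fold, but by 0.50, inside 1.5-fold, with the arrays centred. In the cold its log2 ratio was 0.39, 1.31-fold and inside 1.5-fold. That ratio ranged from -0.16 with the arrays centred to 1.17 with perfect-match intensities, beside medians over all genes of -0.29 and 0.41.

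The log2 ratio of HSP82 exceeded that of HSC82 by 0.33 under pressure and also by 0.33 in the cold. Centring the arrays cannot change this excess. Under the other scalings it ranged from 0.25 to 0.34 under pressure and from 0.18 to 0.26 in the cold. With perfect-match minus mismatch intensities, added after the data were seen, the pressure ratios lay further apart, at 1.74 for HSP82 and 1.18 for HSC82. Without replicates the excess could not be tested. The high-pressure array against the low-temperature array gave nearly equal log2 ratios for both genes, 0.44 for HSP82 and 0.45 for HSC82. These genes share most of their sequence, so a probe for one may read the transcript of the other, which was not tested.

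The perfect-match intensities of the Hsp90 genes as deposited separated the stressed arrays less than the RMA levels did, and for HSC82 in the opposite order. The perfect-match intensity of HSC82 was 2558 in the control, 5242 under pressure and 5772 in the cold, so here the cold array was the brighter. For HSP82 it was 1459, 3774 and 3728, in the order of the RMA levels but nearly equal under pressure and in the cold. Mismatch intensities were also brighter on the cold array, at 555, 752 and 1381 for HSP82 and 526, 628 and 1235 for HSC82. The median mismatch intensity of all rows was 172, 165 and 178, and the median perfect-match intensity was 278, 327 and 400. With perfect-match intensities quantile normalized, pressure lay above cold for both genes, by 0.34 for HSP82 and 0.21 for HSC82 on the log2 scale. The perfect-match minus mismatch ratio of cold to control, an alternative added after the data were seen, was 1.38 on the log2 scale for HSP82 and 1.16 for HSC82. The part of mismatch signal in the RMA ratios was not tested.

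**Figure D2:**
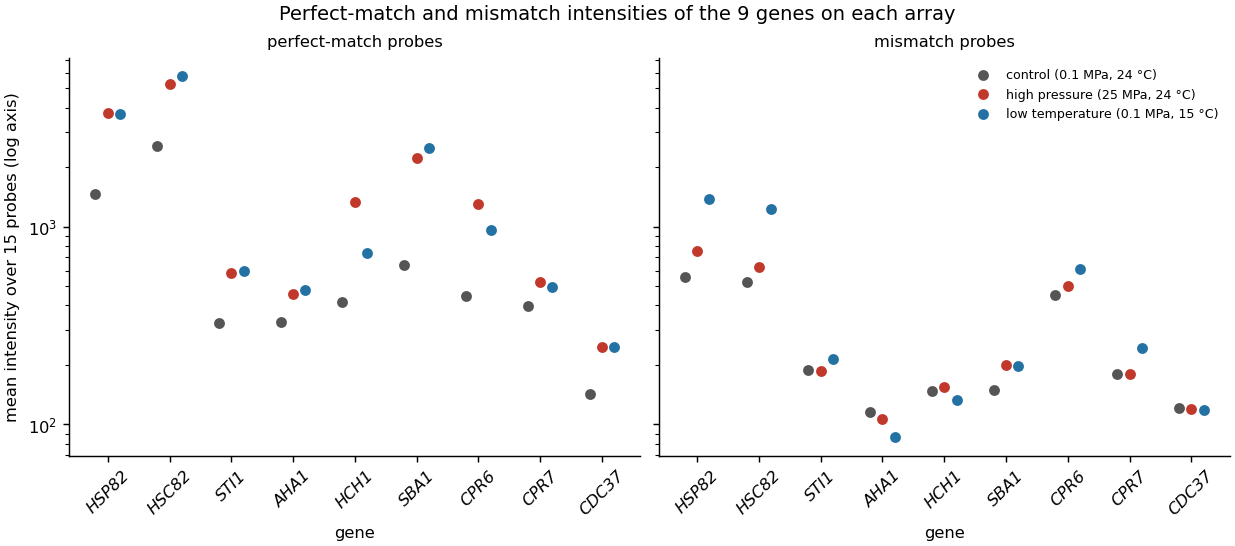
Mean intensity over 15 probes, on a log axis, of the perfect-match probes (left) and mismatch probes (right) of each gene on each array. Mismatch intensities of HSP82 and HSC82 are at 1381 and 1235 on the low-temperature array, above those of both other arrays.

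STI1 (YOR027W, chromosome XV), the homologue of mammalian HOP that bridges Hsp70 and Hsp90, lay at 6.97 in the control, 8.09 under pressure and 8.05 in the cold, the order in which 3 levels are given from here on. It was higher by 1.12 under pressure, 2.17-fold, and by 1.08 in the cold, 2.11-fold. Both treated arrays lay above the control and within 0.04 of each other. In the cold the ratio of STI1 was inside 1.5-fold after centring, at 0.53, and with perfect-match intensities quantile normalized, at 0.26.

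CDC37 (YDR168W, chromosome IV), the cochaperone that brings protein kinases to Hsp90, lay at 4.53, 5.90 and 5.70. Its control level was not above mismatch, with a perfect-match intensity of 142 against a mismatch intensity of 121. Under pressure the RMA level was at least 2.58-fold higher, a log2 ratio of 1.37 that was 0.80 with perfect-match intensities. In the cold it was at least 2.24-fold higher, a log2 ratio of 1.17, but its cold level lay below the 25th percentile of that array, 5.77, and it is not among the 5 counted.

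AHA1 (YDR214W, chromosome IV), the main activator of the Hsp90 ATPase, lay at 6.31, 7.50 and 7.46. It was higher by 1.19 under pressure, 2.28-fold, and by 1.15 in the cold, 2.22-fold. The perfect-match intensities were 330, 457 and 479 and gave smaller log2 ratios of 0.47 and 0.54, both inside 1.5-fold. When those intensities were quantile normalized the cold ratio was -0.050, so the AHA1 ratios depended on which deposited values were used.

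HCH1 (YNL281W, chromosome XIV), a smaller relative of AHA1 found as a high-copy suppressor of an Hsp90 mutation, lay at 7.40, 9.31 and 7.96. Its RMA log2 ratio under pressure was 1.91, 3.76-fold, and 97.3% of all genes had a lower one. With perfect-match intensities the ratio of HCH1 was 1.68, below the 1.80 of SBA1. In the cold the ratio was 0.56, 1.47-fold and inside 1.5-fold, and it ranged from 0.012 to 1.18 over the alternatives. Perfect-match intensities of 414, 1331 and 737 kept the order of the arrays.

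HCH1 and AHA1 thus differed in pattern. AHA1 stood at nearly the same level under pressure and in the cold, whereas HCH1 was higher under pressure than in the cold by 1.35 on the log2 scale, 2.55-fold. That difference was past 1.5-fold under each alternative scaling and ranged from 0.85 to 1.56. No test of the contrast between both genes was possible.

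SBA1 (YKL117W, chromosome XI), the homologue of mammalian p23 that stabilizes the closed, ATP-bound Hsp90, lay at 8.84, 10.33 and 10.25. It was higher by 1.49 under pressure, 2.80-fold, and by 1.40 in the cold, 2.65-fold. Its ratio stayed past 1.5-fold under every scaling tried, from 1.15 to 2.06 under pressure and from 0.86 to 2.25 in the cold. Its RMA ratio in the cold was above that of 92.4% of all genes.

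CPR6 (YLR216C, chromosome XII), a cyclophilin with tetratricopeptide repeats, lay at 8.11, 9.61 and 8.83. It was above mismatch on the high-pressure array alone, with mismatch intensities of 449, 499 and 613 beside perfect-match intensities of 447, 1299 and 963. Under pressure its RMA level was at least 2.82-fold higher than in the control, a log2 ratio of 1.50 that was 1.54 with perfect-match intensities. No fold is given for the cold, where neither level was above mismatch. It is 1 of the 5 genes counted there, and 4 are counted without it.

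CPR7 (YJR032W, chromosome X), the related cyclophilin, lay at 6.91, 7.15 and 6.92 and was above mismatch on all 3 arrays. Its log2 ratio was 0.23 under pressure and 0.001 in the cold, both inside 1.5-fold. After centring they were -0.11 and -0.55, beside medians over all genes of -0.21 and -0.29. The perfect-match minus mismatch ratio of CPR7 was 0.67 under pressure, past 1.5-fold, and 0.21 in the cold. The RMA ratio of CPR6 exceeded that of CPR7 by 1.26 on the log2 scale under pressure, where the control level of CPR6 was not above mismatch. With perfect-match intensities quantile normalized the excess was 1.11.

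**Figure D3:**
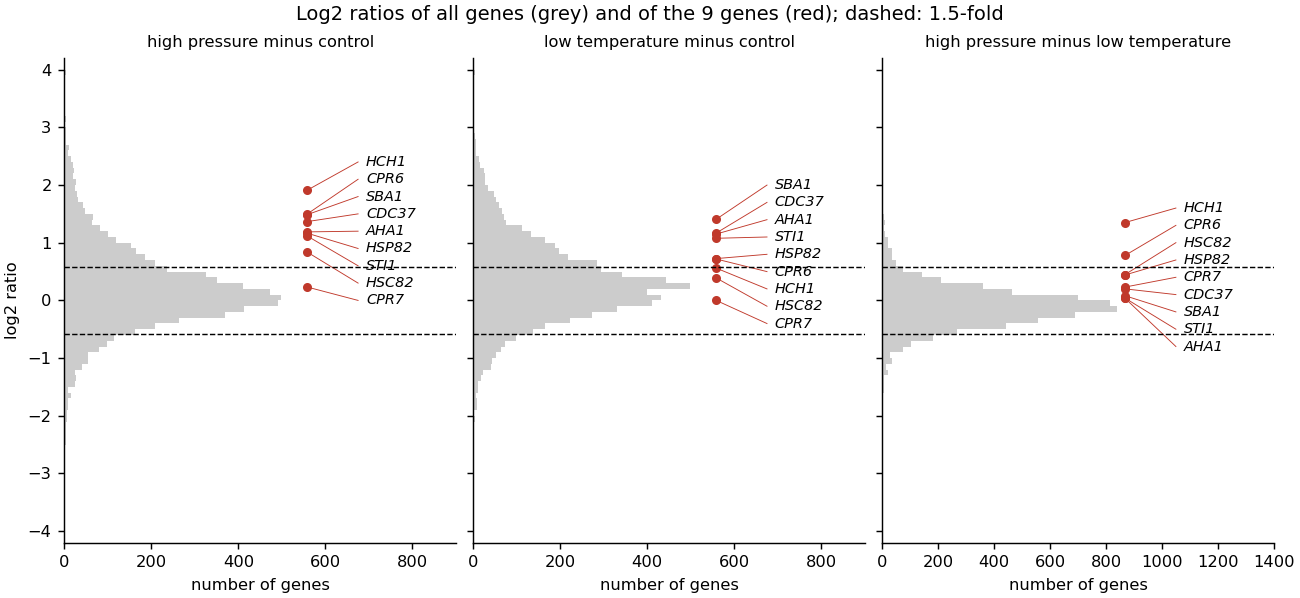
Distribution of the log2 ratios of all genes (grey, in bins of the log2 ratio, with genes past the plotted range in the end bins) and the ratios of the 9 genes (red, placed at an arbitrary horizontal position) in 3 comparisons, with dashed lines at 1.5-fold. Under pressure 8 genes lie above the upper line, and against the low-temperature array HCH1 and CPR6 do.

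Set directly against each other, the high-pressure array was higher than the low-temperature array past 1.5-fold for 2 of the 9 genes and lower for 0. Of 4799 genes past the level limit, 4.27% were higher and 10.1% lower, and the median log2 ratio was 0.23 for the 9 genes and -0.12 for all genes. HCH1 was one of them. The other was CPR6, at least 1.72-fold higher with a log2 ratio of 0.78, which was 0.43 and inside 1.5-fold with perfect-match intensities. The remaining 7 genes had log2 ratios from 0.04 for AHA1 to 0.45 for HSC82. With the arrays centred 4 genes were higher, HSP82 at 0.65 and HSC82 at 0.66 among them, against 8.83% of all genes. With perfect-match intensities 5 of the 9 ratios were above 0, and the median ratio of all genes was -0.23.

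The scaling of the arrays moved the cold comparison more than the pressure comparison. Under pressure 7 or 8 of the 9 genes were higher under each of 4 other scalings, and the median log2 ratio lay between 0.77 and 1.04. The count was 8 with gene values quantile normalized, against 20.4% of all genes, and 7 with perfect-match intensities, against 23.8%. It was 7 when those intensities were quantile normalized, against 14.4%. In the cold, 2 were higher with the arrays centred, AHA1 and SBA1, where 14.6% of all genes were higher and 30.4% lower. The median of the 9 genes was then 0.18, against -0.29 for all genes. With perfect-match intensities as deposited 7 were higher in the cold, but so were 45.9% of all genes. With those intensities quantile normalized, HSP82 and SBA1 were higher, against 13.3% of all genes. Under pressure, 17.1% of all genes were higher and 25% lower with the arrays centred.

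In the cold 4 genes were higher with gene values quantile normalized, against 20.1% of all genes. At 2-fold, 7 of the 9 were higher under pressure and 3 in the cold, against 14.9% and 18.8% of all genes. Between high pressure and low temperature, HCH1 alone was higher at 2-fold, against 1.25% of all genes, and with perfect-match intensities, against 1.73%. There HCH1 and CPR6 were both higher with gene values quantile normalized (5.77% of all genes) and with perfect-match intensities quantile normalized (4.34%).

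Settings other than scaling gave the following counts. Without the limit on low levels the counts were 8 under pressure, 6 in the cold and 2 between the treated arrays, against 23.9%, 30.2% and 3.35% of all genes. Without the trend of the ratio on gene length they were 8, 5 and 2, against 26%, 32.4% and 4.25%. Over genes above mismatch on both arrays, chosen after seeing the data, they were 6 of 7, 4 of 7 and 1 of 8, against 27.7%, 31.8% and 5.43% of all such genes.

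**Figure D4:**
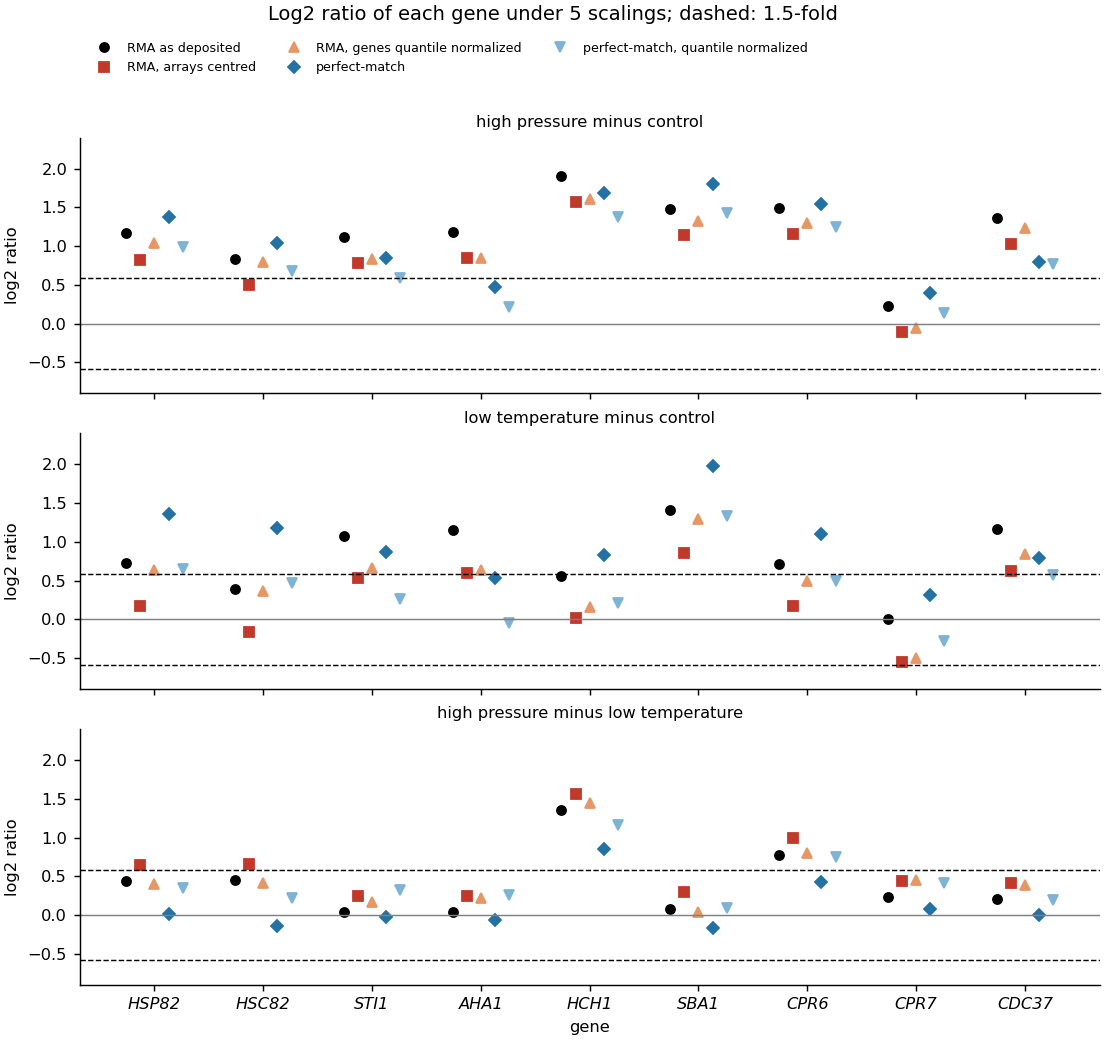
Log2 ratio of each gene in 3 comparisons with the RMA levels as deposited and under 4 other scalings, with dashed lines at 1.5-fold. SBA1 stays above the upper line against the control in each scaling, whereas the cold ratios of HSP82, HSC82 and HCH1 spread across it.

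A list of 11 other Hsp90 cochaperones and partner proteins had 1 gene higher and 1 lower under pressure, against 28.1% and 12.2% of all genes, and its median log2 ratio was 0.09 against 0.13. The cold gave 2 higher and 1 lower, against 34.8% and 9.6%, and a list median of 0.07 against 0.26. In each of these comparisons 8 of the 11 passed the level limit, and the shares of all genes are over those past it. SGT1, a cochaperone that links Hsp90 to kinetochore and ubiquitin ligase assembly, was higher by 0.85 under pressure, 1.80-fold, and by 0.70 in the cold, 1.62-fold. Centring gave SGT1 ratios of 0.51 and 0.15, inside 1.5-fold. PPT1, the phosphatase that acts on Hsp90, had log2 ratios of -1.30 under pressure, at least 2.47-fold lower, and -0.65 in the cold, at least 1.57-fold lower. With perfect-match intensities the ratios of PPT1 were -0.88 under pressure and -0.02 in the cold.

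Of 11 peptidyl-prolyl isomerases other than CPR6 and CPR7, 2 were higher under pressure and 0 lower, against 28.1% and 12.2% of all genes, and the list median was 0.37 against 0.13. CPR5, a cyclophilin of the endoplasmic reticulum, was higher by 0.77, 1.71-fold, and CPR2, a secreted cyclophilin, by 0.76, 1.69-fold. In the cold CPR2 alone was higher, by 0.66, 1.58-fold, against 34.8% of all genes, and the list median was 0.27 against 0.26. After centring, 0 were higher in either comparison, against 17.1% of all genes under pressure and 14.6% in the cold. Then 2 were lower under pressure and 1 in the cold, against 25% and 30.4% of all genes. With perfect-match intensities 4 were higher under pressure and 8 in the cold, against 23.8% and 45.9% of all genes.

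Of 20 other genes, mainly of chaperones, chosen for transcription that depends on Hsf1, 19 were measured and SSA1 was not analysed here. In each comparison against the control 18 of the 19 passed the level limit. Under pressure 10 were higher and 1 lower, against 28.1% and 12.2% of all genes, and the list median was 0.65 against 0.13. Centring left 8 higher and 2 lower, against 17.1% and 25%. The cold gave 9 higher and 1 lower, against 34.8% and 9.6% of all genes, and a list median of 0.58 against 0.26. Centring changed the cold counts to 7 and 5, against 14.6% and 30.4%, and that median to 0.03 against -0.29. MBF1, a transcriptional coactivator of this list, was higher by 1.89 under pressure, 3.70-fold, and by 2.00 in the cold, 3.99-fold. HSP42, a small heat shock protein, was higher in the cold by 1.61, at least 3.05-fold, and under pressure by 1.22, at least 2.33-fold. HSP104, the protein disaggregase, was higher by 1.98 under pressure, 3.94-fold, and by 1.91 in the cold, 3.76-fold. HSP10, the mitochondrial cochaperonin, was higher by 1.85 under pressure, 3.61-fold, and by 0.98 in the cold, 1.98-fold. Centring gave HSP10 a cold ratio of 0.43, inside 1.5-fold.

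HSF1 itself lay at 5.55, 5.18 and 5.18 and was above mismatch on no array, with mismatch intensities brighter than perfect-match intensities, so no fold is given. The list of HSF1 with the stress transcription factors SKN7, MSN2 and MSN4 had 0 genes past 1.5-fold in either direction in both comparisons. Of all genes, 28.1% and 34.8% were higher and 12.2% and 9.6% lower. SKN7 and MSN4 were also above mismatch on no array, and MSN2 alone was above it. After centring 1 gene was lower in each comparison, against 25% and 30.4% of all genes. With perfect-match intensities 2 of the list were higher in the cold, against 45.9%, and 0 under pressure, against 23.8%. Of 7 genes whose proteins depend on Hsp90 as clients, 2 were higher and 0 lower in both comparisons. Of the 7, 6 passed the level limit under pressure and 5 in the cold. Among all genes past that limit 28.1% and 34.8% were higher. They were SLT2, the kinase of the cell wall integrity pathway, at 1.18 under pressure, 2.27-fold, and 1.03 in the cold, 2.04-fold, and CDC28, the cell cycle kinase, at 0.67, 1.60-fold, and 0.83, 1.78-fold. After centring, SLT2 alone was higher under pressure, at 0.84, and 1 client gene was lower there, against 17.1% and 25% of all genes. In the cold 0 of the 7 passed 1.5-fold after centring, against 14.6% of all genes higher and 30.4% lower. HAP1, GCN2 and SWE1 of the client list were above mismatch on no array. With perfect-match intensities 1 client gene was higher under pressure and 5 were in the cold, against 23.8% and 45.9% of all genes.

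**Figure D5:**
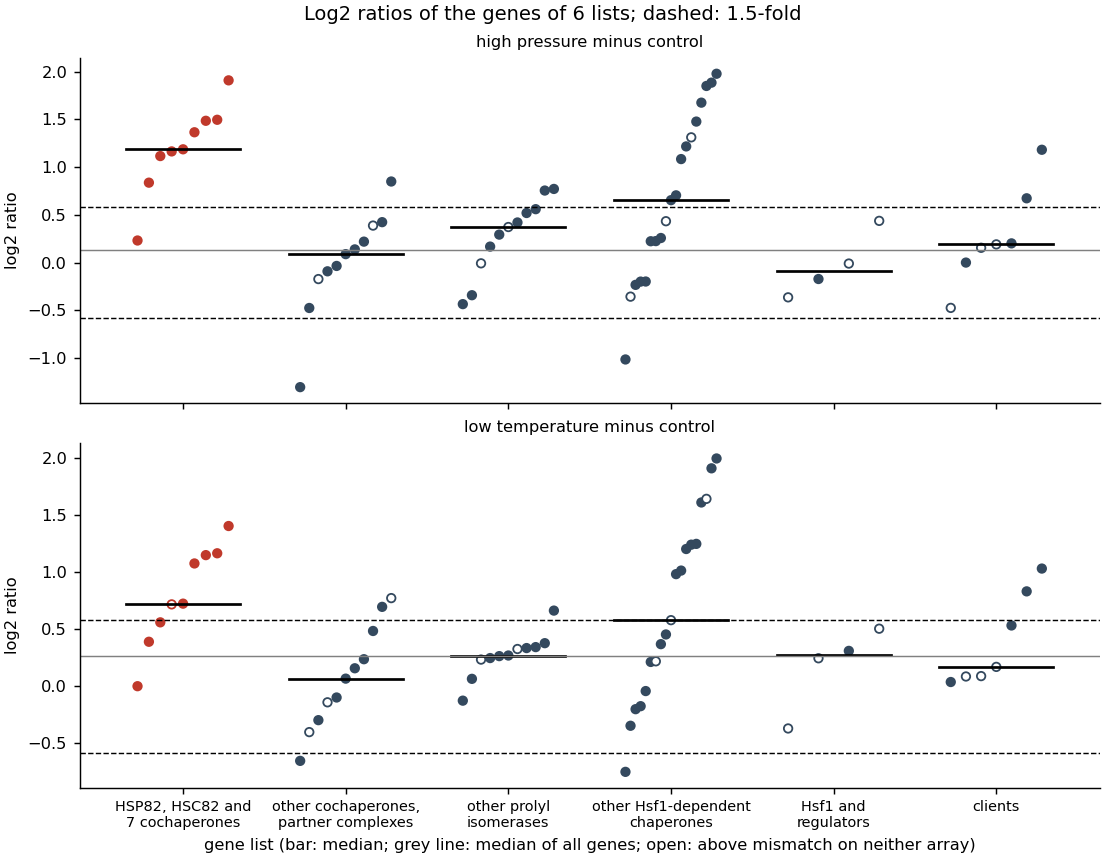
Log2 ratio against the control of each gene of 6 lists under high pressure (top) and low temperature (bottom), with black bars at the list medians, a grey line at the median of all genes and dashed lines at 1.5-fold. The median of the 9 genes lies at 1.19 under pressure and 0.72 in the cold, and open circles mark genes above mismatch on neither array.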

How the data were processed

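The log2 levels were made and deposited by the authors with RMA and quantile normalization, per the labels. RMA is also named in the submitters' processing notes, and its version, the background correction and the genome build are not given in the sources used here. The row medians of the deposited levels, 6.43, 6.77 and 6.98, differ more than gene values quantile normalized across these arrays would, and which arrays were normalized together is not stated. The per-array tables deposited by the authors hold the mean perfect-match, mismatch and difference intensity of each row on a linear scale, and their coefficient of variation, the ratio of SD to mean. Those deposited tables also count the probe pairs, 15 in every row. Rows were named through the RefSeq gene table of assembly R64 by locus tag (1723), symbol (3950) or synonym (152) on the same chromosome, and 512 kept the name in the files. Rows of 1 gene were averaged, which left 6270 genes from 6337 rows. A gene was above mismatch where the mean difference over its standard error exceeded 1.76 (14 degrees of freedom). Alternatives were array centring, quantile normalization of gene values, perfect-match intensities as deposited or quantile normalized, removal of a lowess trend on gene length (fraction 0.3, statsmodels 0.14.6), no level limit, and 2-fold. The functions were tested on simulated data. The 9 genes and the further lists were chosen with earlier results of these data known. From each list the text names up to 3 genes with the largest log2 ratio among those past 1.5-fold and above mismatch on either array, and HSF1.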

Additional observations from a re-analysis of the deposited data

How the results depend on the processing

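No result was tested, since each condition has 1 array, and no paired analysis was possible because each group holds 1 sample. Of the counts and medians over the 9 genes, those of high pressure against the control stayed within 1.5 times the count and on the same side of 1.5-fold under each alternative tried. In the cold against the control, the 5 genes higher became 2 with the arrays centred, 2 with perfect-match intensities quantile normalized and 3 at 2-fold. The median there became 0.18 with the arrays centred and 0.46 with the quantile-normalized intensities. For all genes the median was then -0.29 and -0.03. For high pressure against low temperature, the 2 genes higher became 4 with the arrays centred and 1 in each of 3 settings: perfect-match intensities, 2-fold, and only genes above mismatch on both arrays, the last chosen after seeing the data. The cold ratio of AHA1 turned from 1.15 to -0.050 with quantile-normalized perfect-match intensities. The cause was not tested. Treating HSP82 and HSC82 as 1 averaged value, also chosen after seeing the data, gave 7 of 8 higher under pressure and, with 7 of 8 past the level limit, 4 in the cold, against 28.1% and 34.8% of all genes. With no limit on low levels CDC37 joined the cold count, which became 6. Signal near mismatch limits CPR6 and the control level of CDC37.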

Other observations

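The genes whose pair of log2 ratios against the control, under pressure and in the cold, lay closest to that of HSP82 were UBP7, FUN14, ALE1 and YOR343W-A. Their Euclidean distances were 0.032, 0.046, 0.048 and 0.050 on the log2 scale, over 2890 genes above mismatch on all 3 arrays. For HSC82 the closest were YMR046C, LOG1, BET3 and FAR1, at distances of 0.039, 0.043, 0.055 and 0.068. Both ratios share the control array. Of the 2890 genes, 7 lay within 0.1 of HSP82 and 12 within 0.1 of HSC82. Whether such nearness reflects a shared control of these genes was not tested.

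The 18 genes that flank the 9 in the RefSeq gene order were read as well. Against the control, 5 of them were higher past 1.5-fold under pressure and 5 in the cold, against 28.1% and 34.8% of all genes, and 0 were lower. Their median log2 ratios were 0.23 and 0.26. The largest under pressure were VPH2 beside SBA1, at 1.58, and TAF10 beside CDC37, at 1.50, both chosen after their values were seen. YAR1 beside HSP82 was at 0.77 and both neighbours of HSC82, RTP1 and YMR187C, were inside 1.5-fold at 0.19 and -0.01.

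HSP26, a small heat shock protein of the Hsf1-dependent list, was singled out after its values were seen. Its log2 ratio was -1.01 under pressure, at least 2.02-fold lower, and 1.20 in the cold, 2.30-fold higher. With perfect-match intensities the ratios of HSP26 were -0.73 and 1.36. The RMA ratios of the 9 Hsp90 and cochaperone genes were all above 0 in both comparisons. The median ratio of all genes was above 0 as well, at 0.13 under pressure and 0.26 in the cold. With the arrays centred, 8 of the 9 ratios were above 0 under pressure and 7 in the cold, and the median of all genes was -0.21 and -0.29. The share of all genes with ratios above 0 was not counted.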
